A study of Rattus norvegicus with 6 samples.

Results

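Late-passage olfactory ensheathing cells (OEC Lp) were set against the mean of the other cell populations of the study, OEC Ep and TEG3. A gene was kept where OEC Lp lay above both populations, or below both, on each of the 2 array types used. Of the 3131 genes measured on both types, 836 (26.7%) were kept, 551 with OEC Lp above and 285 with OEC Lp below. The members were selected on the signs of the measured differences, so those signs are a description of the set and are not tested.

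All 3 populations were cultured from the olfactory nerve layer of both olfactory bulbs of Wistar rats and grown in DMEM with 3% fetal bovine serum, 20 µg/ml bovine pituitary extract and 2 µM forskolin, an activator of adenylyl cyclase. OEC Ep was a primary culture from rats at postnatal day 21, harvested after a week with less than 3 population doublings, and OEC Lp came from rats of the same age and was passaged until it had exceeded 50 doublings. TEG3 is a clonal line from rats at postnatal day 60, made by transfecting such a culture with the large T antigen of SV40, and it was also kept for long in culture. It therefore differs from OEC Lp in the donors' age, in being a single clone and in carrying large T, and these cannot be told apart here. For each population 2 RNA pools of 3 cultures each are described, and each population was hybridised to 1 Affymetrix U34A and 1 RAE2.0 array, with no replicate within a type. Which pool went on which array is not given, so p-values measure the disagreement of the array types, which may be technical.

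Olfactory ensheathing cells are glia that wrap the axons of olfactory neurons, which are renewed throughout life, and they have been grafted into lesioned nervous tissue because they can support axon growth. They act through surface adhesion molecules, secreted trophic factors, and proteases and protease inhibitors that set how the extracellular matrix is cut. The study divided its populations by their capacity to promote regrowth of adult axons, with OEC Ep and TEG3 on the capable side and OEC Lp on the poor side. That capacity was not measured on these arrays.

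The arrays were alike in overall signal: 59.1 to 61.8% of probe sets exceeded the floor, the signal below which values were set to a constant (128 on U34A, 168 on RAE2.0). The 3' to 5' ratio of GAPDH, a sign of RNA quality, ran from 1.52 to 1.96 on U34A, where OEC Ep was highest, and from 0.981 to 1.02 on RAE2.0. The labels give a purity over 90% for OEC Ep and OEC Lp and none for TEG3. The labelled cell type was checked against 12 defining markers of OECs. All 10 that were measured on each type were at least 2-fold higher in OEC Ep than in the other populations. In OEC Lp 3 of them were at the floor on U34A and 7 on RAE2.0, and in TEG3 1 and 7. OEC Lp and TEG3 thus shared a level of these markers below that of OEC Ep. Some stayed above the floor in OEC Lp and TEG3. On U34A Ngfr had 2569 and 3621 there and Pmp22 649 and 737, and on RAE2.0 Pmp22 had 3368 and 2610. In bulk RNA, fewer cells of a type and less RNA per cell cannot be told apart.

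The first question was how far OEC Lp stood apart at all. OEC Lp lay above both populations in 17.6% and below both in 9.1% of genes. For comparison, OEC Ep was above both in 574 and below both in 593 genes, and TEG3 in 529 and 432. Most of these distances were small: in 631 of the 836 members (75.5%) the nearest other population was within 1.5-fold on at least 1 array type. OEC Lp was at least 2-fold above each population on each type in 76 genes (2.43%) and at least 2-fold below in 25 (0.798%). The lower count is limited by the floor, since OEC Lp cannot lie below a population that is itself at the floor. Without a floor, 544 genes lay above and 367 below.

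**Figure D1:**
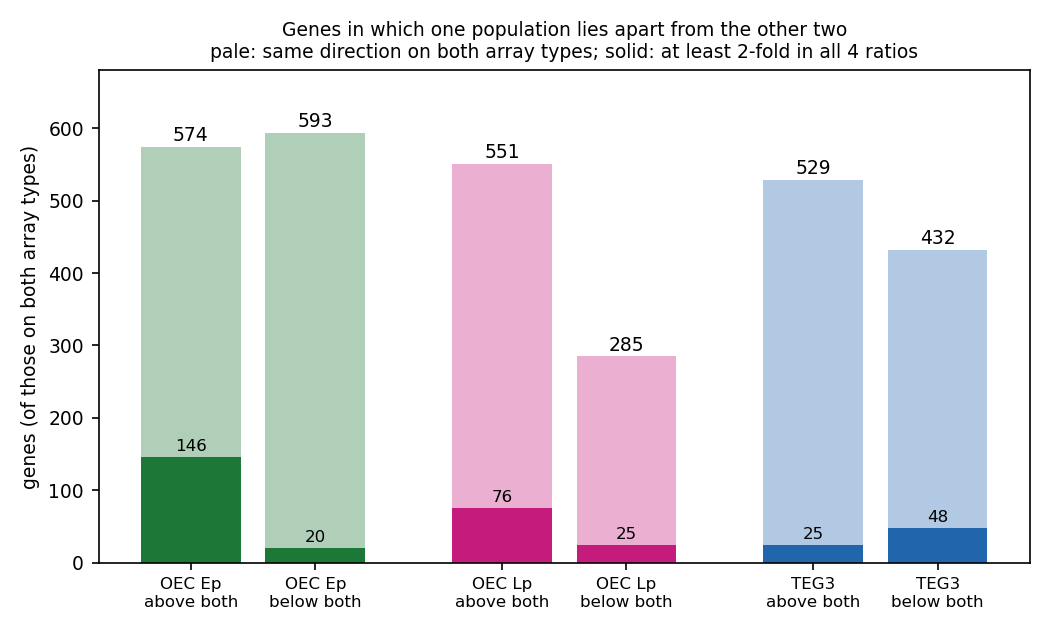
Number of genes, of the 3131 on both array types, in which OEC Ep, OEC Lp or TEG3 was above or below both other populations on U34A and on RAE2.0 (pale bars), and the number in which all 4 ratios were at least 2-fold (solid bars). OEC Lp was above both in 551 genes and below both in 285, with 76 and 25 of them at least 2-fold in all ratios.

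The difference between OEC Lp and the mean of the other populations was then tested with limma over all 3131 genes, with array type as a block. At an adjusted p under 0.05, 70 of the members were higher in OEC Lp (2.24% of genes) and 29 were lower (0.926%). The median log2 difference was 2.40 among the higher and -2.83 among the lower genes, and 0.04 over all genes. Of these 99 genes, 78 were at least 2-fold from each population on each type, 61 higher and 17 lower. Because the residual of the test is the disagreement of the types, the test favours genes on which the types agree, as the rule does. Over all genes the log2 differences of the types correlated with a Pearson r of 0.548 (Spearman rho 0.385), a description over genes from shared arrays.

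**Figure D2:**
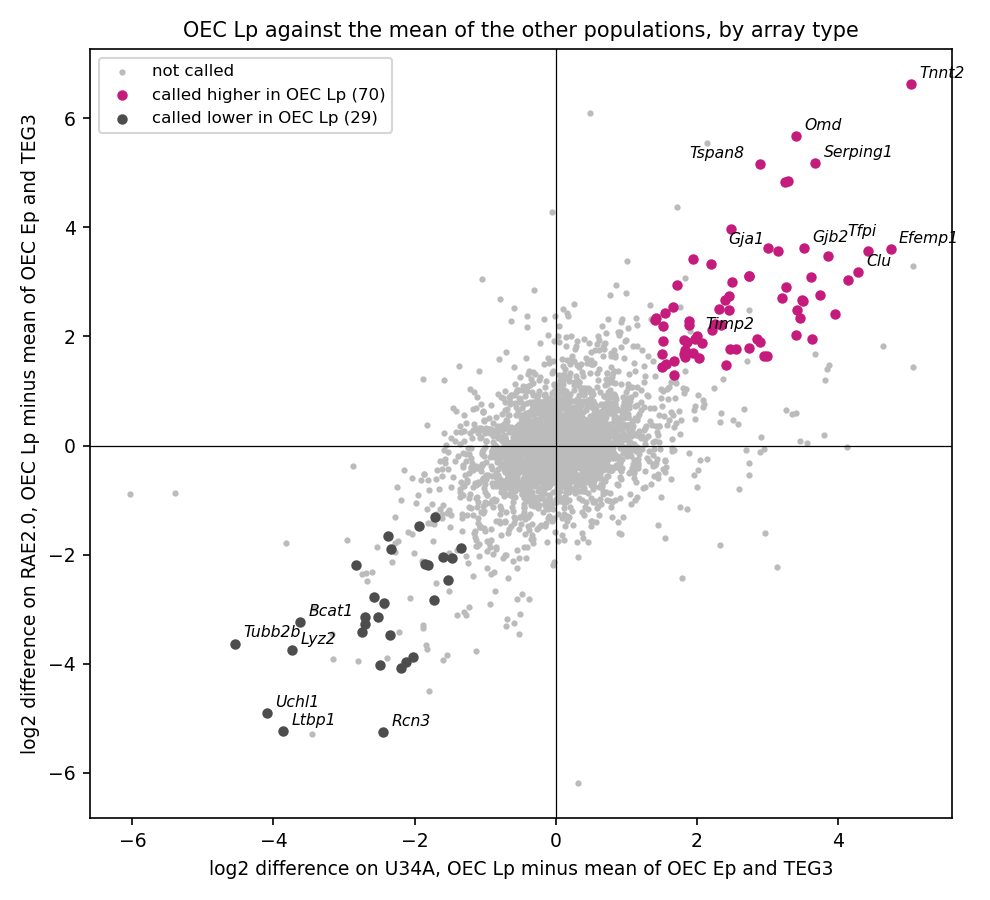
Log2 difference between OEC Lp and the mean of OEC Ep and TEG3 on U34A (horizontal axis) and on RAE2.0 (vertical axis), 1 point per gene. The 70 genes called higher lie at the upper right, led by Tnnt2, and the 29 called lower at the lower left, led by Ltbp1 and Uchl1.

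The calls were not stable to the removal of an array. By limma 0 genes were called when any 1 of the 6 arrays was left out, without the array type as a block, without the floor, or without the filter on dim probe sets, although all 99 kept their direction in each of these settings. The number of genes at an unadjusted p under 0.05 was 372 to 450 with an array left out, 161 without the block, 486 without the floor and 538 without the filter. The kept direction of the 99 is no support where an array, the block or the filter was left out. The rule fixed it there in advance. Without the floor the same held for genes with a single probe set on each type, since a floor cannot reverse an order. With a floor at the 20th percentile 28 genes were higher and 20 lower, and 38 of the 99 were among them. A test restricted to genes above the floor on all arrays, 2093 genes with 42 of the 99 among them, called 31 higher and 17 lower, 41 of which were among the 99.

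The mean of OEC Ep and TEG3 can be moved by either population, so the separate comparisons in the same fit were also read. OEC Lp was higher than OEC Ep at an adjusted p under 0.05 in 2.11% of genes and lower in 4.02%. Against TEG3 the shares were 1.02% and 0.192%. Members that passed both tests were few: 14 higher genes (0.447%) and 5 lower genes (0.16%). The higher ones were Tnnt2, Omd, Serping1, Efemp1, Akr1c14, Itgb4, Tfpi, Cx3cl1, Thbd, Plpp3, Nbl1, Rictor, Fgf1 and Rassf9, and the lower ones Ltbp1, Uchl1, Bcat1, Basp1 and Fabp5. Of the 29 lower genes, 27 passed against OEC Ep and 5 against TEG3. The 70 higher genes were more evenly placed, 52 passing against OEC Ep and 24 against TEG3. These comparisons share the OEC Lp arrays. OEC Ep and TEG3 were both at the floor on both types for Akr1c14, so constant values enter its tests. On 1 type this also held for Omd (RAE2.0) and Rassf9 (U34A), which passed the filter there through OEC Lp alone. Constant values were not confined to these genes. In 41 of the 70 higher genes OEC Ep or TEG3 was at the floor on at least 1 type. Of the 29 lower genes, OEC Lp was at the floor on at least 1 type in 16 and on both types in 4.

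The promoters of the called genes farthest from their nearest population, Tnnt2 above and Uchl1 and Ltbp1 below, are shown as examples of the regulatory sequence beside the leading members. Each is the 250 bases before the RefSeq transcription start on build GRCr8, 5′ to 3′, and capitals mark letters found by a search of both strands. The core promoter elements searched were the TATA box, spelled TATAAA, the GC box, which reads GGGCGG, and the box named for its letters CCAAT. The sites of regulated factors were the E-box of helix-loop-helix factors, CANNTG, and the site of AP-1, which was searched as TGANTCA. To these were added the cAMP response element in its full form, TGACGTCA, and the MCAT element of TEAD factors, CATTCC. Tnnt2, higher in OEC Lp, lies on the plus strand (chr13:49818873-49819122), and Uchl1 (chr14:41849418-41849667) and Ltbp1 (chr6:26177302-26177551), both lower, on the minus strand.
Tnnt2: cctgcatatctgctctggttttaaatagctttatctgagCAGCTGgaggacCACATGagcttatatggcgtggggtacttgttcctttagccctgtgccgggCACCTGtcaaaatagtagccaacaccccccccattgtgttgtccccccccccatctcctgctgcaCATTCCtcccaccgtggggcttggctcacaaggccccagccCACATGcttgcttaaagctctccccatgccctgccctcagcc
Uchl1: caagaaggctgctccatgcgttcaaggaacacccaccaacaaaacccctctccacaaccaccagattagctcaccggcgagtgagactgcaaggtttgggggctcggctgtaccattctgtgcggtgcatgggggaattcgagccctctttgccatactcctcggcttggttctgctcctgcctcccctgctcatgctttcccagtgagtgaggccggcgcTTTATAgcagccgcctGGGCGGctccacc
Ltbp1: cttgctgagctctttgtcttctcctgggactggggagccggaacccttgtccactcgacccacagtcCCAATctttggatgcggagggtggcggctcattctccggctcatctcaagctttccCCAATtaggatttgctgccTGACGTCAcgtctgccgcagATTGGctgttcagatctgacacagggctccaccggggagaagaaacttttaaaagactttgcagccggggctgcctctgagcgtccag
The Tnnt2 window held 4 E-boxes and 1 MCAT element, a motif known from muscle promoters, which began 83 bases before the start. Uchl1 had the letters TATAAA on the opposite strand only, printed as TTTATA at 29 bases before the start, and a GC box at 13 bases. Ltbp1 had 3 CCAAT boxes and 1 cAMP response element, at 108 bases before the start. The window of Omd, also far above both populations, held none of these motifs.

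Promoters were in the table for 55 of the higher genes, 23 of the lower genes and 2611 of the genes on both types. The MCAT letters stood in 13 windows of the higher genes (23.6%), in 1 of the lower genes (4.35%), in 10.4% of the 2611 and in 11.8% of all 27457 windows. CCAAT boxes were in 20% of the higher and 17.4% of the lower windows, against 35.9% of the 2611 and 34.3% of all windows. GC boxes were in 56.4%, 56.5%, 61.3% and 32.4% in the same order, E-boxes in 52.7%, 47.8%, 54.4% and 65.2%, and TATA boxes in 12.7%, 13%, 8.2% and 13.1%. AP-1 sites were in 7.27%, 8.7%, 4.83% and 6.36%, and the cAMP response element in 0%, 4.35%, 2.8% and 1.7%. These shares are descriptions of letters on either strand of the windows and were not tested.

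4 inhibitors of extracellular proteases were called higher in OEC Lp. Signals are given from here on in the order OEC Ep, OEC Lp and TEG3. Tfpi, the inhibitor of the tissue factor pathway of coagulation, had signals of 471, 5279 and 128 on U34A and 1406, 8253 and 343 on RAE2.0. OEC Lp was the highest on each type, at least 5.87-fold above each other population (adjusted p = 0.0184 by limma against their mean). Serping1, the C1 inhibitor, which blocks the first proteases of complement and kallikrein, had 265, 2363 and 128 on U34A and 854, 13697 and 168 on RAE2.0, a difference of at least 21.5-fold from the mean of the others on the log2 scale (log2 difference 4.43 ± 0.47 SE, adjusted p = 0.0189). TEG3 was at the floor on both types for this gene, and OEC Ep lay between. Timp2, an inhibitor of matrix metalloproteinases that also takes part in the activation of MMP2, had 2940, 16238 and 5609 on U34A and 2253, 10645 and 3077 on RAE2.0 (4.02-fold; log2 difference 2.01 ± 0.26 SE, adjusted p = 0.0258). The OEC Lp signal exceeded each other signal by at least 2.89-fold. Spint2, a Kunitz inhibitor of serine proteases, had 381, 2871 and 391 on U34A and 621, 3537 and 1468 on RAE2.0 (5.25-fold; log2 difference 2.39 ± 0.40 SE, adjusted p = 0.0385). Against TEG3 alone neither Timp2 nor Spint2 passed (adjusted p = 0.0749 and 0.115).

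Of 30 genes on the list of protease inhibitors and receptors, 16 were measured on both types. Of these 4 were higher, those just described, and 0 were lower, beside a background of 2.24% and 0.926% of all genes. The median log2 difference was 0.33, against 0.04 over all genes. Timp1 lay above both populations but was not called, with 4212, 10918 and 8569 on U34A and 20535, 23821 and 10737 on RAE2.0 (log2 difference 0.77 ± 0.44 SE, adjusted p = 0.457). Timp3, which binds to the matrix, had 388, 291 and 185 on U34A and 5133, 628 and 376 on RAE2.0, with OEC Lp between the others on both types. Serpine2, a thrombin and plasminogen activator inhibitor of glia, had 31014, 1394 and 559 on U34A and 59590, 12698 and 510 on RAE2.0, also with OEC Lp in between (log2 difference -0.19, adjusted p = 0.914). Cst3, cystatin C, was above both populations without a call (log2 difference 1.74, adjusted p = 0.0884). On this list 6 genes lay above both populations, against 17.6% of all genes. A2m and F2r lay below both without a call, 2 genes beside a background of 9.1%. Thbd, thrombomodulin, the surface cofactor that turns thrombin towards protein C, was on no list and had 321, 1756 and 305 on U34A and 214, 2964 and 168 on RAE2.0. It was at least 9.37-fold higher in OEC Lp (log2 difference 3.23 ± 0.40 SE, adjusted p = 0.0231).

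Among the proteases themselves 1 of 25 genes was called, against 2.24% higher and 0.926% lower over all genes. Ctsc, cathepsin C, a lysosomal dipeptidase that activates serine proteases, had 2013, 128 and 368 on U34A and 4676, 168 and 691 on RAE2.0 and was at least 8.47-fold lower (log2 difference -3.08 ± 0.29 SE, adjusted p = 0.0189). Mmp2, gelatinase A, met the rule with OEC Lp lowest on both types at 340, 148 and 230 on U34A and 1013, 168 and 232 on RAE2.0. Its log2 difference of -1.23 did not pass (adjusted p = 0.206), and on U34A all 3 signals lay within 3-fold of the floor. Mmp3, stromelysin 1, also lay below both populations without a call (log2 difference -2.09, adjusted p = 0.151). Adam10, Ctsl and Pcsk5 lay above both without a call. The list thus had 3 genes above both and 3 below, against 17.6% and 9.1% of all genes. Mmp9 was at the floor in OEC Lp and TEG3 on both types, and Mmp14, the membrane-bound activator of MMP2, had a log2 difference of 0.02, adjusted p = 0.98. The plasminogen activators did not set OEC Lp apart. Plat had 9127, 3071 and 1798 on U34A and 39295, 10516 and 6087 on RAE2.0, with TEG3 lowest, and Plau had 688, 228 and 128 on U34A and 1431, 168 and 168 on RAE2.0, with OEC Lp and TEG3 both at the floor on RAE2.0. F2r, the thrombin receptor, was lowest in OEC Lp on both types with 7241, 128 and 9845 on U34A and 6437, 4880 and 12785 on RAE2.0. Its types differed widely in size, and it did not pass (log2 difference -3.47 ± 1.12 SE, adjusted p = 0.201). The median of the protease list was -0.20, made up of -0.91 against OEC Ep and 0.43 against TEG3, so OEC Lp lay between the populations on balance.

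Trophic factors and their binding proteins moved in both directions. Ltbp1, which holds latent TGF-beta in the matrix, had the lowest log2 difference of all called genes. Its signals were 2912, 252 and 4642 on U34A and 6069, 168 and 6633 on RAE2.0, at least 11.6-fold below each other population on each type (log2 difference -4.55 ± 0.40 SE, adjusted p = 0.0189). Tgfb3, a TGF-beta ligand, had 512, 128 and 468 on U34A and 975, 322 and 812 on RAE2.0 and was at least 3.25-fold lower (log2 difference -1.70 ± 0.27 SE, adjusted p = 0.035). Cntf, a cytokine that supports motor neurons and is made by myelinating glia, had 1776, 239 and 395 on U34A and 5003, 432 and 783 on RAE2.0 (4.01-fold lower; log2 difference -2.00 ± 0.28 SE, adjusted p = 0.0286). OEC Ep stood far above TEG3 for Cntf, and the difference between OEC Lp and TEG3 alone did not pass (adjusted p = 0.333). Hbegf, a ligand of the EGF receptor, had 379, 138 and 389 on U34A and 1186, 221 and 710 on RAE2.0 (3.40-fold lower; log2 difference -1.76 ± 0.31 SE, adjusted p = 0.0469). Fst, follistatin, which binds and blocks activin, had 7207, 1019 and 3768 on U34A and 3106, 168 and 1126 on RAE2.0 (at least 7.55-fold lower; log2 difference -2.92 ± 0.36 SE, adjusted p = 0.0224).

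In the other direction stood Fgf1, a fibroblast growth factor, with 302, 1569 and 331 on U34A and 197, 1034 and 168 on RAE2.0. It was at least 5.31-fold higher in OEC Lp (log2 difference 2.41 ± 0.26 SE, adjusted p = 0.0189), and OEC Ep and TEG3 were close to each other. The receptor Fgfr1 had 1841, 4086 and 202 on U34A and 1861, 7771 and 437 on RAE2.0 (log2 difference 2.93, adjusted p = 0.0189), with TEG3 the lowest population and the difference from OEC Ep alone not passing (adjusted p = 0.0809). Igfbp6, which binds IGF2 in preference to IGF1, had 615, 11949 and 1096 on U34A and 205, 5108 and 1021 on RAE2.0 (at least 12.8-fold higher; log2 difference 3.67 ± 0.38 SE, adjusted p = 0.0189). Nbl1, a secreted antagonist of BMPs, had 431, 2922 and 625 on U34A and 635, 5444 and 739 on RAE2.0 (6.69-fold higher; log2 difference 2.74 ± 0.28 SE, adjusted p = 0.0189), and Sfrp4, a secreted antagonist of Wnt ligands, 331, 1494 and 320 on U34A and 326, 3837 and 454 on RAE2.0 (6.77-fold higher; log2 difference 2.76 ± 0.36 SE, adjusted p = 0.0251). For both antagonists OEC Ep and TEG3 lay near each other and OEC Lp above them on both types.

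On the growth factor list 33 of 55 genes were on both types, of which 1 was higher and 3 lower, with a median of -0.07; over all genes 2.24% were higher and 0.926% lower. On the receptor list 27 of 45 were measured, 1 higher and 0 lower (median 0.09), and on the IGF list 10 of 15, 1 higher and 0 lower (median 0.52). Bdnf, a neurotrophin, had 303, 185 and 184 on U34A and 289, 193 and 538 on RAE2.0, low on every array, with OEC Lp lowest on RAE2.0 alone (log2 difference -0.69 ± 0.41 SE, adjusted p = 0.475). Gdnf had 128, 190 and 128 on U34A and 168, 168 and 268 on RAE2.0, at or near the floor on every array. Members without a call included Il6, Tgfa and Gas6 below both populations (log2 differences -1.92, -1.44 and -1.07) and Pgf, Csf1, Pdgfa and Bmp4 above both (0.80, 0.55, 0.89 and 2.45). Of the Wnt, BMP and Notch list, 16 of 53 genes were measured, with Sfrp4 higher, Fst lower and a median of 0.45.

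**Figure D3:**
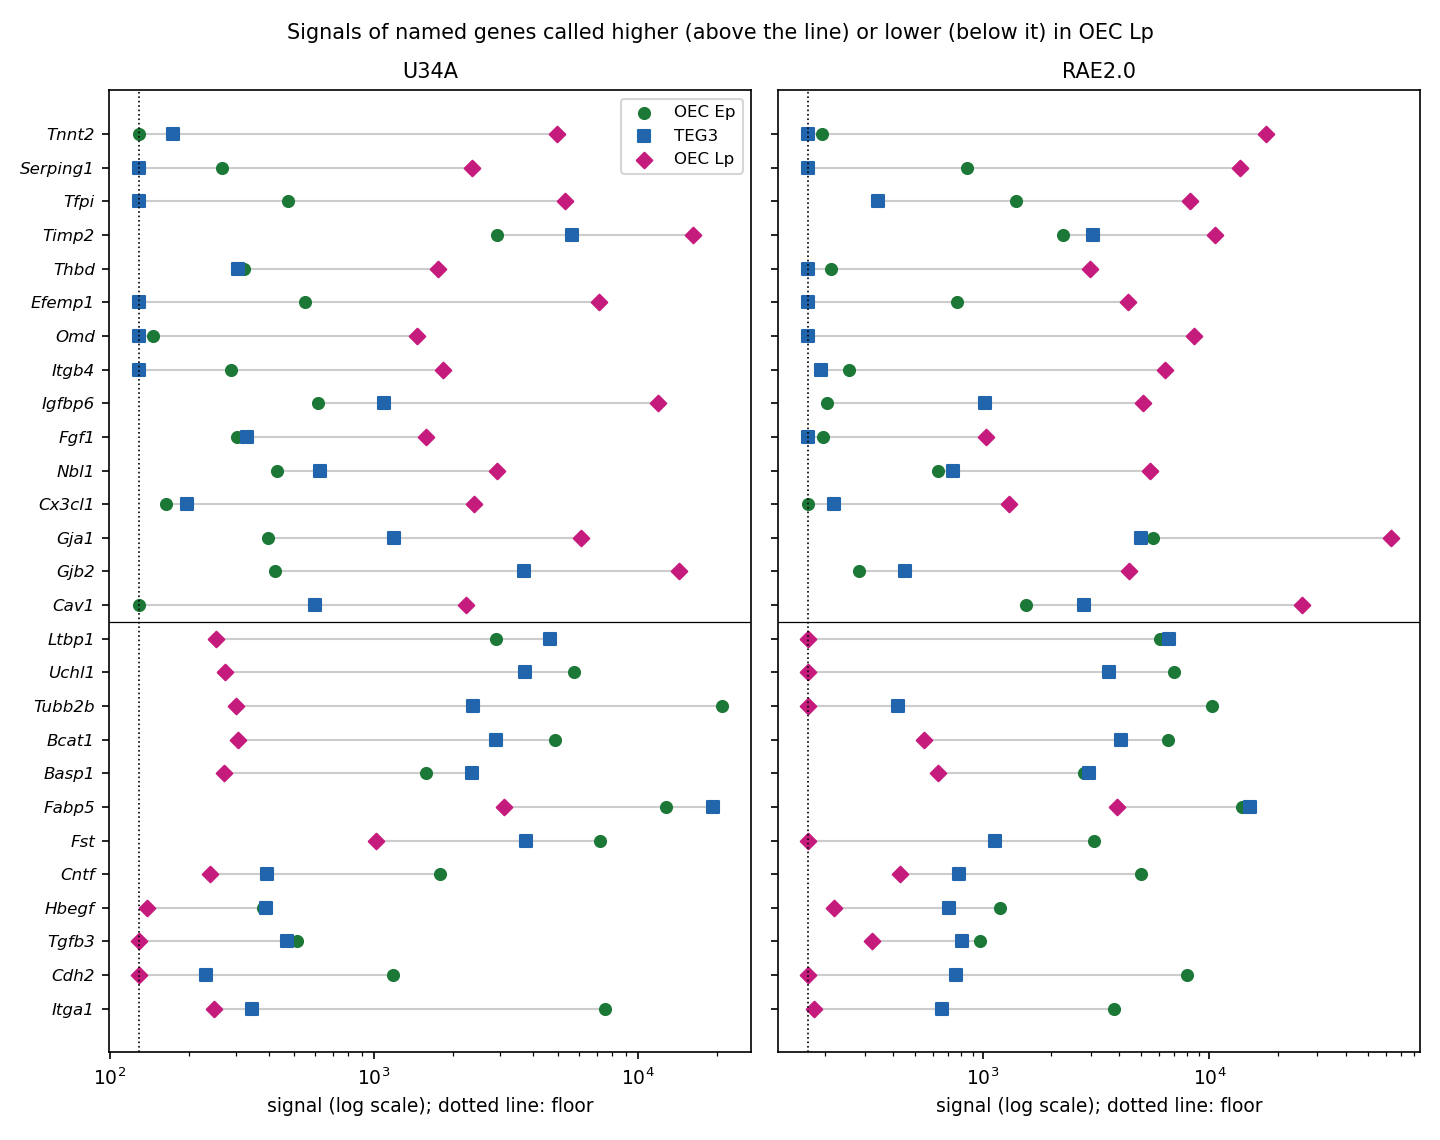
Signals on a log scale of 27 named genes on U34A (left) and RAE2.0 (right), with circles for OEC Ep, squares for TEG3 and diamonds for OEC Lp, 1 array each. The dotted line is the floor. Diamonds lie to the right of both other symbols for the 15 genes above the horizontal line and to the left for the 12 below it.

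On the 3 matrix lists, calls were few and all higher in OEC Lp. Efemp1, a fibulin of the extracellular matrix, had 549, 7124 and 128 on U34A and 767, 4358 and 168 on RAE2.0 and was at least 18.0-fold higher (log2 difference 4.17 ± 0.35 SE, adjusted p = 0.0184). Omd, osteomodulin, a small keratan sulfate proteoglycan of bone, had 146, 1457 and 128 on U34A and 168, 8564 and 168 on RAE2.0, where OEC Ep and TEG3 were at or near the floor (at least 23.3-fold higher; log2 difference 4.54 ± 0.54 SE, adjusted p = 0.0219). Col3a1, the fibrillar collagen of soft connective tissue, had 6684, 39993 and 7841 on U34A and 21808, 78964 and 24382 on RAE2.0 (4.35-fold higher; log2 difference 2.12 ± 0.29 SE, adjusted p = 0.0284). OEC Ep and TEG3 were close in level for Col3a1, and OEC Lp was at least 3.24-fold above each. Loxl1, which cross-links elastin, had 9450, 12429 and 1301 on U34A and 6177, 12263 and 1647 on RAE2.0, with TEG3 low and OEC Ep close to OEC Lp (log2 difference 1.88, adjusted p = 0.0369; against OEC Ep alone, adjusted p = 0.365). Of genes on none of these lists, Aebp1, a secreted collagen-binding protein, was lower with 1083, 130 and 662 on U34A and 2911, 168 and 914 on RAE2.0 (at least 7.96-fold lower; log2 difference -2.99 ± 0.33 SE, adjusted p = 0.0189). Rcn3, also on none of them, a calcium-binding protein of the endoplasmic reticulum in collagen-making cells, had 1562, 267 and 1345 on U34A and 13481, 242 and 6309 on RAE2.0 (14.4-fold lower; log2 difference -3.85 ± 0.67 SE, adjusted p = 0.0439).

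Of the collagens and their enzymes 2 of 16 measured genes were higher and 0 lower (median -0.32), of the matrix glycoproteins 1 of 16 was higher and 0 lower (median -0.16), and of the proteoglycans 1 of 20 was higher and 0 lower (median 0.31). These lists held 31, 46 and 31 genes, and over all genes 2.24% were higher and 0.926% lower. Fn1, fibronectin, lay above both populations with 1326, 3988 and 1305 on U34A and 36415, 68574 and 29031 on RAE2.0 but did not pass (log2 difference 1.34 ± 0.28 SE, adjusted p = 0.0759). The matrix glycoproteins had a median of -1.65 against OEC Ep and 0.61 against TEG3, with OEC Lp in between.

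Adhesion receptors were also called in both directions. Itgb4, the integrin beta chain that binds laminin in hemidesmosomes, had 288, 1828 and 128 on U34A and 257, 6351 and 192 on RAE2.0 and was at least 16.5-fold higher in OEC Lp (log2 difference 4.04 ± 0.44 SE, adjusted p = 0.0189). Tspan8, a tetraspanin that associates with integrins, had 128, 959 and 128 on U34A and 168, 9122 and 386 on RAE2.0 (at least 16.4-fold higher; log2 difference 4.03 ± 0.58 SE, adjusted p = 0.0317). Itga1, the collagen-binding alpha chain, had 7539, 247 and 346 on U34A and 3803, 179 and 662 on RAE2.0 and Itga7, a laminin-binding alpha chain, had 1084, 173 and 297 on U34A and 928, 204 and 272 on RAE2.0. Both were lower in OEC Lp (log2 differences -2.93, adjusted p = 0.0336, and -1.51, adjusted p = 0.0463), but the difference from TEG3 alone did not pass (log2 difference -1.19, adjusted p = 0.352, and -0.60, adjusted p = 0.434). Cdh2, N-cadherin, the adhesion molecule that axons use to grow on glia, had 1185, 128 and 231 on U34A and 7941, 168 and 758 on RAE2.0 (log2 difference -2.95 ± 0.50 SE, adjusted p = 0.0416). It was at the floor in OEC Lp on both types and far higher in OEC Ep than in TEG3. Of 17 measured genes on the integrin list (of 30) 2 were higher and 2 lower, against 2.24% and 0.926% of all genes, with a median of -0.28. Of 18 neural adhesion genes (of 38) 0 were higher and Cdh2 alone was lower (median -0.45). Ncam1 and L1cam, adhesion molecules that promote neurite growth, did not meet the rule, and OEC Lp and TEG3 were both low: Ncam1 had 1591, 305 and 165 on U34A and 1477, 168 and 335 on RAE2.0, and L1cam 5032, 348 and 600 on U34A and 3253, 168 and 168 on RAE2.0.

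Cell junction genes were the list with the highest median. Of 9 measured genes (of 36), 3 were higher and 0 lower, against 2.24% and 0.926% of all genes, and the median was 0.83, with 0.81 against OEC Ep and 0.85 against TEG3. Gja1, connexin 43, had 397, 6118 and 1194 on U34A and 5649, 63164 and 5004 on RAE2.0 (10.3-fold higher; log2 difference 3.36 ± 0.42 SE, adjusted p = 0.0231). Gjb2, connexin 26, had 422, 14273 and 3703 on U34A and 284, 4411 and 454 on RAE2.0 (11.8-fold higher; log2 difference 3.57 ± 0.52 SE, adjusted p = 0.0317). TEG3 was the nearer population for Gjb2 on both types, and its difference from OEC Lp alone did not pass (adjusted p = 0.125). Cav1, the coat protein of caveolae, had 128, 2227 and 596 on U34A and 1557, 25681 and 2806 on RAE2.0 (at least 9.95-fold higher; log2 difference 3.31 ± 0.38 SE, adjusted p = 0.0189). Jup, Krt8 and Tjp1 lay above both populations without a call (log2 differences 0.83, 0.33 and 0.94).

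3 genes known from neurons and growing axons were called lower in OEC Lp. Uchl1, a ubiquitin hydrolase abundant in neurons, had 5755, 272 and 3737 on U34A and 6966, 168 and 3608 on RAE2.0, at least 13.7-fold below each other population on each type (log2 difference -4.49 ± 0.31 SE, adjusted p = 0.0184). Tubb2b, a beta tubulin of developing neurons, had 20792, 301 and 2369 on U34A and 10245, 168 and 421 on RAE2.0 (at least 17.0-fold lower; log2 difference -4.09 ± 0.42 SE, adjusted p = 0.0189). Its TEG3 signal fell well below that of OEC Ep, and on RAE2.0 it exceeded OEC Lp by 2.51-fold. Basp1, a growth cone protein related in function to GAP-43, had 1576, 270 and 2361 on U34A and 2808, 633 and 2952 on RAE2.0 (5.70-fold lower; log2 difference -2.51 ± 0.30 SE, adjusted p = 0.0219), and here TEG3 was as high as OEC Ep. Of 23 measured genes on the cytoskeleton and growth cone list (of 40), 0 were higher and 2, Tubb2b and Basp1, lower, against 2.24% and 0.926% of all genes, with a median of -0.47. Nes, nestin, lay below both populations without a call (log2 difference -2.76, adjusted p = 0.0759). Gap43 itself did not meet the rule, with 1574, 803 and 242 on U34A and 483, 374 and 216 on RAE2.0. Of 14 measured neuron markers, Uchl1 alone lay below both populations and Ina alone above both, against 9.1% and 17.6% of all genes. The median of the neuron markers was -0.57 against OEC Ep and 0 against TEG3. Scg2 was highest in OEC Lp on RAE2.0 (168, 3276 and 168) but not on U34A (139, 128 and 128). Of 14 cytoskeleton and growth cone genes on RAE2.0 alone, 1 (Pfn2) was at least 2-fold above both populations. On that type 2, Marcksl1 and Tubb3, were at least 2-fold below both. Over all genes on that type alone the shares were 4.34% above and 2.44% below. Vim, vimentin, did not meet the rule with 104624, 80300 and 22057 on U34A and 90618, 83847 and 25940 on RAE2.0, where TEG3 was lowest.

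Contractile genes included the member farthest above both populations. Tnnt2, the cardiac troponin T, which also occurs in early muscle, had 128, 4921 and 174 on U34A and 194, 17776 and 168 on RAE2.0. OEC Ep and TEG3 were at or near the floor, and OEC Lp was at least 28.3-fold above each on each type (at least 56.9-fold; log2 difference 5.83 ± 0.43 SE, adjusted p = 0.0184). Tpm2, a tropomyosin, had 310, 128 and 579 on U34A and 1031, 168 and 1368 on RAE2.0 and was lower (log2 difference -2.27 ± 0.35 SE, adjusted p = 0.035). Of 10 measured contractile genes (of 21) these were the only calls by limma, 1 higher and 1 lower. Over all genes 2.24% were higher and 0.926% lower. The median of the list was -0.62, but the array types differed in sign, with 0.19 on U34A and -1.32 on RAE2.0.

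Most markers of glia of the neural crest gave a different picture, with TEG3 about as low as OEC Lp. Sox10, a transcription factor of that lineage, met the rule and was called (log2 difference -2.68 ± 0.29 SE, adjusted p = 0.0189), with 2904, 128 and 201 on U34A and 5743, 168 and 233 on RAE2.0. The separate difference from OEC Ep passed (adjusted p = 0.00469) and that from TEG3 did not (0.518), and TEG3 exceeded OEC Lp by as little as 1.39-fold. S100b, a calcium-binding protein of glia, had 6119, 129 and 132 on U34A and 40365, 168 and 168 on RAE2.0 and did not meet the rule. Npy, with 2519, 128 and 243 on U34A and 4514, 174 and 168 on RAE2.0, and Ngfr, the low-affinity neurotrophin receptor, with 12716, 2569 and 3621 on U34A and 12522, 168 and 168 on RAE2.0, did not meet it either. Of 17 measured OEC and Schwann cell markers (of 30), 0 were higher and Sox10 alone was lower, against 2.24% and 0.926% of all genes. Without a call, Mbp lay below both populations and Egr2 above both. Egr2 had 258, 305 and 128 on U34A and 274, 549 and 285 on RAE2.0. Foxd3 was highest in OEC Lp on U34A (980, 1491 and 630) but in OEC Ep on RAE2.0 (323, 168 and 168). The median was -3.33 against OEC Ep and -0.01 against TEG3. Entpd2, an ectonucleotidase of glia of peripheral nerves, had the same pattern with 5719, 191 and 209 on U34A and 10209, 168 and 216 on RAE2.0 (log2 difference -2.83 ± 0.32 SE, adjusted p = 0.0189; against TEG3 alone, adjusted p = 0.826).

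Microglia and macrophage markers were mostly highest in OEC Ep, by at least 2-fold for 7 of 13 on U34A and 20 of 22 on RAE2.0. Cd14, a coreceptor for lipopolysaccharide, was well above the floor in all 3 populations on RAE2.0, with 8664, 2787 and 1035. Lyz2, the lysozyme of macrophages, had 17264, 192 and 378 on U34A and 27306, 168 and 187 on RAE2.0 and was called lower (log2 difference -3.74 ± 0.40 SE, adjusted p = 0.0189), although TEG3 exceeded OEC Lp by only 1.11-fold on RAE2.0. Of 10 measured markers (of 27) Lyz2 was the only gene that met the rule, against 26.7% of all genes. Over these 10 genes the summed signal was 28899, 1866 and 1933 on U34A and 44813, 4299 and 2570 on RAE2.0, and 18 of 22 markers measured on RAE2.0 were at the floor in OEC Lp and 17 of 22 in TEG3. The median log2 difference of the list was -2.67 against OEC Ep and 0.00 against TEG3. The part of macrophages in the OEC Ep signals of other genes was not tested.

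**Figure D4:**
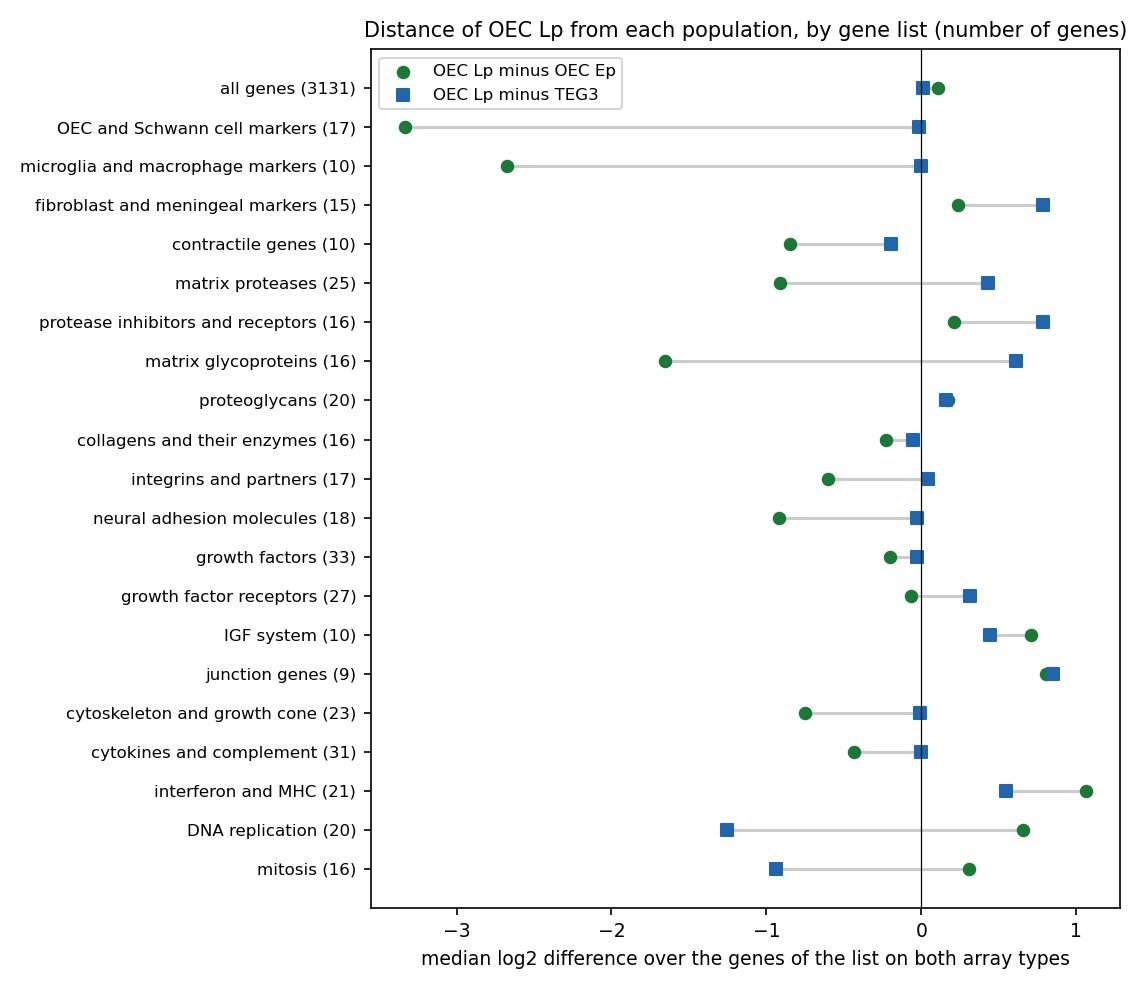
Median log2 difference of OEC Lp from OEC Ep (circles) and from TEG3 (squares) over the genes of each list measured on both array types, with the number of genes in brackets. Markers of OECs lie at -3.33 against OEC Ep and -0.01 against TEG3, while junction genes lie at 0.81 and 0.85, to the same side of 0.

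Fibroblast and meningeal markers differed among themselves. Of 15 measured on both types (of 26), 2 were higher, Col3a1 and Cyp1b1, and 0 were lower, against 2.24% and 0.926% of all genes, with a median of 0.54. Cyp1b1, a cytochrome P450 of mesenchymal cells, had 1172, 14463 and 1408 on U34A and 2963, 11138 and 1031 on RAE2.0 (8.47-fold higher; log2 difference 3.08 ± 0.45 SE, adjusted p = 0.0317). The summed signal of these 15 genes was 97559, 108503 and 44344 on U34A and 144795, 148057 and 40344 on RAE2.0, so OEC Ep and OEC Lp were close in the sum. On RAE2.0, OEC Lp was at least 2-fold above both populations for 10 of 22 markers, OEC Ep for 5 and TEG3 for 1. Of the 7 markers on RAE2.0 alone 5 were at least 2-fold above both populations, against 4.34% of all genes on that type alone. They included Foxc1, a transcription factor gene needed for the meninges, with 168, 2118 and 200, and Tbx18, a transcription factor gene of mesothelium and pericytes, with 168, 2511 and 369. Zic1, a zinc finger gene of meninges and cerebellum, had 168, 765 and 176, and Twist1, a gene of mesenchyme, 168, 1342 and 423. In these 4 genes OEC Ep was at the floor and OEC Lp highest. Other fibroblast genes were highest in OEC Ep: Thy1 had 584, 128 and 128 on U34A and 2060, 168 and 168 on RAE2.0, and Postn, a secreted matrix protein, had 14838, 128 and 128 on U34A and 56582, 394 and 168 on RAE2.0. The part of such cells in the difference of OEC Lp was not tested.

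**Figure D5:**
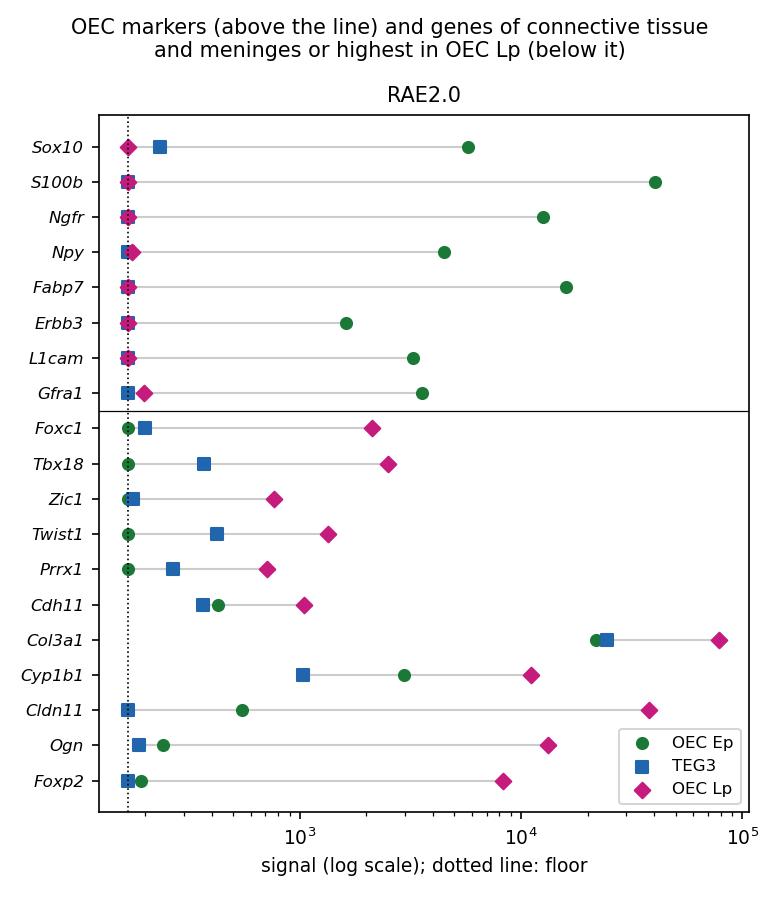
Signals on RAE2.0 on a log scale of 8 OEC markers (above the line) and 11 genes of connective tissue and meninges or with the highest ratios in OEC Lp (below it), 1 array per population. The OEC markers shown are high in OEC Ep alone, with OEC Lp and TEG3 at or near the floor of 168. The lower group is highest in OEC Lp. The genes shown are a choice from longer lists, so the clean split holds for them only. Pmp22, another defining marker of OECs, stayed well above the floor throughout, with 15170, 3368 and 2610. Of the 22 fibroblast and meningeal markers on RAE2.0, OEC Lp was highest for 14, OEC Ep for 7 and TEG3 for 1.

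Cytokines and complement genes had 4 calls among 31 measured genes (of 57), all higher in OEC Lp, beside a background of 2.24%. Their median was -0.35. Besides Serping1 these were Clu, Masp1 and Cx3cl1. Clu, the chaperone clusterin, which also blocks the terminal complement complex, had 1768, 69702 and 7184 on U34A and 536, 6300 and 904 on RAE2.0 (at least 13.3-fold higher; log2 difference 3.73 ± 0.41 SE, adjusted p = 0.0189). Masp1, a protease of the lectin pathway, had 292, 4882 and 544 on U34A and 218, 5168 and 1686 on RAE2.0 (at least 10.2-fold higher; log2 difference 3.35 ± 0.47 SE, adjusted p = 0.0286; against TEG3 alone, adjusted p = 0.12). Cx3cl1, the chemokine that binds the fractalkine receptor of microglia, had 163, 2392 and 196 on U34A and 168, 1303 and 220 on RAE2.0 (at least 9.53-fold higher; log2 difference 3.25 ± 0.33 SE, adjusted p = 0.0189), and OEC Ep and TEG3 were both near the floor. The complement proteases C1r and C1s lay above both populations without a call (log2 differences 2.00 and 1.49). Cd59b, a regulator that stops the terminal complement complex, had 1934, 3172 and 648 on U34A and 2321, 3568 and 743 on RAE2.0 (log2 difference 1.47, adjusted p = 0.0416), and Tlr4, the receptor for bacterial lipopolysaccharide, 128, 456 and 128 on U34A and 478, 1345 and 397 on RAE2.0 (at least 3.31-fold higher; log2 difference 1.73 ± 0.26 SE, adjusted p = 0.0334). Il6, Il33, Cxcl6 and Ptgs1 lay below both without a call.

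Of 12 axon guidance genes on both types (of 61), 1 was called, against 2.24% higher and 0.926% lower over all genes. Efna1, an ephrin ligand, had 131, 644 and 384 on U34A and 168, 1453 and 886 on RAE2.0 (at least 3.29-fold higher; log2 difference 1.72 ± 0.31 SE, adjusted p = 0.0469), with TEG3 the nearer population. Sema3a, a repellent semaphorin, lay above both without a call (log2 difference 1.13, adjusted p = 0.221).

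Of 37 measured genes of antioxidant defence and detoxification (of 51), 3 were higher and 1 lower, against 2.24% and 0.926% of all genes, with a median of 0.06. Gstm2, a glutathione transferase, had 459, 3574 and 621 on U34A and 290, 4643 and 991 on RAE2.0 (7.62-fold higher; log2 difference 2.93 ± 0.36 SE, adjusted p = 0.0224). Gclc, the catalytic subunit for glutathione synthesis, had 128, 895 and 140 on U34A and 968, 4079 and 1432 on RAE2.0 (at least 4.81-fold higher; log2 difference 2.27 ± 0.33 SE, adjusted p = 0.0317), and Ephx1, an epoxide hydrolase, 281, 2261 and 348 on U34A and 644, 2240 and 526 on RAE2.0 (5.28-fold higher; log2 difference 2.40 ± 0.33 SE, adjusted p = 0.0286). Gpx3, the secreted glutathione peroxidase, went down with 3817, 204 and 321 on U34A and 6917, 168 and 221 on RAE2.0 (log2 difference -2.66 ± 0.37 SE, adjusted p = 0.0286), chiefly against OEC Ep. Akr1c14, an aldo-keto reductase that reduces steroids, was on no list and had 128, 1261 and 128 on U34A and 168, 4866 and 168 on RAE2.0 (at least 16.9-fold higher). It was at the floor in OEC Ep and TEG3 on both types, so it passed the filter through OEC Lp alone and its p is not read as support. This held on both types for 3 of the 70 higher genes, the others being Aspg and Gprc5c. Further higher genes passed the filter on 1 type through OEC Lp alone. Among them were Omd on RAE2.0 and Tspan8, Rassf9, Tlr4 and Nupr1 on U34A. Their p-values are not read as support either. Bcat1, the cytosolic transaminase of branched-chain amino acids, had 4861, 305 and 2903 on U34A and 6577, 548 and 4067 on RAE2.0 (10.8-fold lower; log2 difference -3.43 ± 0.26 SE, adjusted p = 0.0184). Fabp5, a fatty acid carrier, had 12845, 3112 and 19226 on U34A and 13996, 3895 and 15154 on RAE2.0 (4.35-fold lower; log2 difference -2.12 ± 0.28 SE, adjusted p = 0.0258). For both genes OEC Lp lay below each other population by at least 3.59-fold. Slc6a6, the taurine transporter, had 1048, 243 and 1064 on U34A and 3680, 169 and 1885 on RAE2.0 (at least 8.22-fold lower; log2 difference -3.04 ± 0.50 SE, adjusted p = 0.0376), and Slc4a4, a sodium bicarbonate cotransporter, was called higher at the edge of the threshold with 1698, 8261 and 128 on U34A and 629, 4027 and 386 on RAE2.0. The next member by p, Zeb1, a transcription factor gene, just missed it at an adjusted p of 0.0542. Aldoc, an aldolase of brain, had 815, 155 and 271 on U34A and 1174, 168 and 413 on RAE2.0 and was lower (at least 3.54-fold; log2 difference -1.82 ± 0.27 SE, adjusted p = 0.0321). Of the genes on no list, Ddah1, which breaks down an inhibitor of nitric oxide synthesis, had 1790, 282 and 940 on U34A and 11472, 358 and 3154 on RAE2.0 (8.78-fold lower; log2 difference -3.13 ± 0.50 SE, adjusted p = 0.035). Pde4b, a phosphodiesterase that degrades cAMP, had 443, 140 and 1382 on U34A and 2731, 168 and 2750 on RAE2.0 (at least 9.55-fold lower; log2 difference -3.26 ± 0.51 SE, adjusted p = 0.035), with TEG3 at least as high as OEC Ep.

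Annexins and S100 proteins split. Anxa1 and Anxa5, calcium-dependent binders of phospholipid, had 2231, 8942 and 3505 on U34A and 19780, 61513 and 32243 on RAE2.0 and 3016, 7921 and 1352 on U34A and 20446, 39366 and 5023 on RAE2.0, both higher in OEC Lp (log2 differences 1.48, adjusted p = 0.0469, and 1.96, adjusted p = 0.0336). S100a4, an S100 protein of motile cells, was lower with 26113, 7444 and 13690 on U34A and 41223, 6791 and 15053 on RAE2.0 (3.05-fold; log2 difference -1.61 ± 0.29 SE, adjusted p = 0.0485). That list had 2 genes higher and 1 lower of 29 measured (of 43), against 2.24% and 0.926% of all genes, with a median of 0.03.

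Other genes that passed against both populations included 3 regulators of signalling. Rictor, a subunit of mTOR complex 2, had 314, 1602 and 293 on U34A and 1620, 11527 and 2016 on RAE2.0 (5.80-fold higher; log2 difference 2.54 ± 0.27 SE, adjusted p = 0.0189). Plpp3, a phosphatase that inactivates lysophosphatidic acid at the cell surface, had 277, 2307 and 158 on U34A and 779, 2983 and 452 on RAE2.0 (at least 7.44-fold higher; log2 difference 2.90 ± 0.35 SE, adjusted p = 0.0219). Rassf9, a protein of the Ras association family, had 128, 617 and 128 on U34A and 168, 865 and 202 on RAE2.0 (at least 4.75-fold higher; log2 difference 2.25 ± 0.25 SE, adjusted p = 0.0189). Msx1, a homeobox gene of neural crest mesenchyme, Pawr, a proapoptotic leucine zipper protein, and Nupr1, a stress-induced nuclear protein, were also higher (at least 8.45-fold, 7.74-fold and at least 8.47-fold; adjusted p = 0.0189, 0.0189 and 0.0336). Against TEG3 alone these 3 did not pass (adjusted p = 0.0594, 0.0581 and 0.0966). Rassf9 and Nupr1 passed the filter on U34A through OEC Lp alone, so their p-values are not read as support.

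Proliferation genes met the rule in no case, and the array types disagreed on them. None of 20 measured DNA replication genes (of 48) and none of 16 mitosis genes (of 44) met the rule on both types. By limma 0 of them were called at an adjusted p under 0.05 (1 and 1 genes had an unadjusted p under 0.05). Over all genes 26.7% met the rule. Replication genes had a median of 0.66 against OEC Ep and -1.25 against TEG3, and mitosis genes 0.31 and -0.94. Against the mean of both, the U34A medians were 0.02 for replication and 0.48 for mitosis genes, while the RAE2.0 medians were -0.85 and -1.08. The summed signal of the mitosis genes was 22650, 42184 and 43678 on U34A and 55748, 30973 and 101298 on RAE2.0, where OEC Lp was lowest. That of the replication genes was 19178, 39179 and 71119 on U34A and 46898, 45754 and 154834 on RAE2.0. Of genes on RAE2.0 alone, 4 of 22 mitosis genes and 2 of 23 replication genes were at least 2-fold below both populations and 0 above, against 2.44% below and 4.34% above over all genes on that type alone. They included Birc5, an inhibitor of apoptosis and part of the chromosomal passenger complex, with 886, 402 and 1522, and Ccna2, cyclin A, with 3572, 1758 and 5132. Cdkn2a, the locus of inhibitors of cyclin-dependent kinases, was measured on RAE2.0 alone with 528, 5948 and 9257, with OEC Lp in between. Interferon and MHC genes had 6 of 21 members above both populations, against 17.6% of all genes. By limma 0 of the 21 were called (median 0.56, with 4 at an unadjusted p under 0.05). The list split by array type, with medians of 1.45 on U34A and -0.12 on RAE2.0. Of 14 such genes on RAE2.0 alone, 4 were at least 2-fold above both populations (Ifit3, Ifitm1, Ifitm2 and Isg15) and 0 below, against 4.34% and 2.44% of all genes on that type alone. Isg15, a ubiquitin-like protein induced by interferon, had 7152, 16841 and 3308. Ribosomal proteins (0 of 31 called, median 0.10) and immediate early genes (0 of 31, median 0.28) were likewise without a call. They had 0 and 6 genes at an unadjusted p under 0.05. Over all genes 2.24% were called higher and 0.926% lower. The other lists had 1 call or fewer in either direction: channels and transporters (Slc6a6 of 30), p53 targets and cyclin-dependent kinase inhibitors (Ephx1 of 17), cholesterol and lipid genes (Fabp5 of 24), glycolysis and hypoxia genes (Aldoc, lower, of 20), neuron markers (Uchl1 of 14), astrocyte markers (Gja1 higher and Aldoc lower of 6), oligodendrocyte markers (Sox10 of 8) and endothelial markers (0 of 4 by limma, with 0 at an unadjusted p under 0.05).

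On RAE2.0 alone a further 8411 genes were measured once per population, so no test was made. OEC Lp was at least 2-fold above both populations in 365 of them (4.34%) and at least 2-fold below in 205 (2.44%). The highest were Cldn11, a claudin of myelin and of the arachnoid barrier, with 546, 37813 and 168, and Ogn, osteoglycin, a small proteoglycan like Omd, with 241, 13225 and 187. Foxp2, a forkhead transcription factor gene, had 191, 8312 and 168, Hspb8, a small heat shock protein gene, 220, 6537 and 188, and Colec12, a scavenger receptor gene, 1090, 28894 and 470. In each of these OEC Lp was over 20-fold above the higher of the other populations. The lowest were Fbln2, a fibulin of basement membranes, with 47455, 288 and 8690, and Htra1, a secreted serine protease, with 10132, 271 and 6060. Cxcl1, a neutrophil chemokine, had 41304, 1514 and 26648, Armcx4, an armadillo repeat gene on the X chromosome, 5053, 245 and 3470, and Eif2s3y, a translation factor gene on the Y chromosome, 2115, 168 and 4828.

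Members of the lists on RAE2.0 alone added to several groups. The counts stand beside 4.34% at least 2-fold above both populations and 2.44% below over all genes on that type alone. The chemokine genes Cxcl2, Cxcl3, Cxcl12 and Ccl7 lay at least 2-fold below both populations together with Cxcl1, 5 of 17 cytokine and complement genes measured on that type alone. Cxcl12, which attracts progenitor cells and leukocytes, had 1033, 220 and 5251. Of 34 axon guidance genes 7 were at least 2-fold above both and 0 below, among them Sema5a, a semaphorin, with 240, 1183 and 168, and Rgma, a repulsive guidance molecule, with 266, 886 and 168. Of 8 neural adhesion genes 4 were above and 1 below. Cdh1, E-cadherin, had 168, 1071 and 168 and Mcam, a cell adhesion molecule of Schwann cells and vessels, 12453, 168 and 1068. Among protease inhibitors Wfdc1 and Serpini1 were above both and Slpi, the secretory leukocyte protease inhibitor, was below both with 1982, 245 and 2287. Gfap, an intermediate filament protein of several glia, had 3236, 168 and 168, with OEC Lp and TEG3 both at the floor.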

How the data were processed

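The deposited values are linear signal intensities, which the authors computed with MAS5, per the submitters' processing notes. The design text adds a filter on poorly represented probe sets without its setting. The genome build is not given in the sources used here. The deposited arrays had means of 1000.3 to 1002 after trimming 2% at each end, and these were made equal within a type. The floor was the 40th percentile of all signals of an array type, 128.4 for U34A and 168 for RAE2.0; lower signals were raised to it, and probe sets had to exceed it on at least 1 of 3 arrays. Control probe sets were left out. Probe sets with a single symbol, updated through RefSeq gene identifiers, were averaged per gene on the log2 scale. A fold is written "at least" where the lower side was at the floor and the higher side was not; where both were, no fold is given. Ratios to the nearest population use the floored signals.

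Genes on both types (3131) were fitted across all genes with limma 3.58.1 in R 4.3.3, with Benjamini-Hochberg adjustment. The model was population plus array type, which is the replicate number and the block. The procedure was run on simulated data with normal noise and no floor, so the effect of floored values was not checked. The fit had 2 residual and 3.56 prior degrees of freedom. The number of arrays limits the precision. The alternatives were other floors, filters, scalings and gene summaries, no block, and leaving out each array. The rule for named genes took the 15 largest called differences each way, up to 4 called members of each of 34 lists by p, 5 genes each way on RAE2.0 alone, and a fixed set given whatever its result (some of that set are not reported here). Thbd, Nbl1, Rictor, Plpp3, Rassf9, Cd59b, Tlr4, Msx1, Pawr, Nupr1, Zeb1, Aspg, Gprc5c, members named without a call and list members on RAE2.0 alone were chosen after their values were seen where the rule did not name them. The members and lists were chosen with earlier results of these data known. Promoter windows are from RefSeq, build GRCr8.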

Additional observations from a re-analysis of the deposited data

How the results depend on the processing

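Leaving out any 1 of the 6 arrays gave 0 genes higher and 0 lower in OEC Lp, with 372 to 450 genes at an unadjusted p under 0.05. The same counts of 0 and 0 were found without the floor (486 genes at an unadjusted p under 0.05), without the filter on dim probe sets (538, with 4582 genes tested) and with no replicate block (161). Where an array was left out, the lone array of that population was assumed to vary like the others. With a floor at the 20th percentile 28 were higher and 20 lower. With the 40th percentile and a test restricted to genes over the floor on every array of a type, the counts were 31 higher and 17 lower, with 355 genes above both populations. Median scaling (67 higher and 34 lower), quantile normalization (68 and 32) and the brightest probe set per gene (68 and 32) kept 95, 96 and 86 of the 99 genes. All 99 kept their sign wherever they were measured, which the rule fixed in advance where an array, the block or the filter was left out. Without the floor it was fixed in advance for genes with a single probe set on each type. Of the other named genes 4 changed sign. Mmp14 turned to -0.0029 with the brightest probe set and to -0.049 with median scaling, and ran from -0.11 to 0.15 as arrays were left out. In the same way Gdnf ran from -0.34 to 0.57, Timp3 from -1.18 to 0.15 and Serpine2 from -1.58 to 1.20. None of these genes was called. The labels do not say that the pools pair across array types beyond sharing the type. Because signals under the floor were not read, the difference of 60 of the 99 genes is a lower bound.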

Other observations

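Genes of the sex chromosomes differed between the populations on RAE2.0. Eif2s3y, on the Y chromosome, had 2115, 168 and 4828 in the order used above, and OEC Lp was at the floor. Xist, the RNA that silences an X chromosome in female cells, had 1828, 4002 and 168, highest in OEC Lp and at the floor in TEG3. Probe sets annotated to Uty, another Y-linked gene, had 1552, 2331 and 1981 and did not follow this order. The labels used here give no sex of the donor rats, and these genes were looked up after Eif2s3y had been seen among the lowest ratios. The part of donor sex in the difference of OEC Lp was not tested.

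Small leucine-rich proteoglycans of bone and connective tissue differed in direction on these arrays. Prelp, a proteoglycan of cartilage, had 168, 1091 and 168 on RAE2.0 and Ogn 241, 13225 and 187, while Lum, lumican, of the same family, lay below both populations with 329, 128 and 132 on U34A and 689, 168 and 655 on RAE2.0. The genes Cav2 (198, 3400 and 382) and Cav1 were both highest in OEC Lp. These values have 1 array per population, apart from Lum and Cav1, and were not tested as a group.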
